A study of Mus musculus with 20 samples.

Results

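The cytosolic ribosomal protein genes were followed in naive and stimulated mouse CD8 T cells on 20 Affymetrix MG-U74Av2 arrays. Members were the genes whose symbol has the form of a ribosomal protein of the large (Rpl) or small (Rps) subunit, together with the stalk genes and Rpsa, and without the ribosomal S6 kinases. Only probe sets annotated to 1 symbol were used, and the brightest probe set stood for a gene. This gave 35 genes, on 49 probe sets, among 8251 genes on the array. A filter on dim signals kept 30 of them, among 6279 genes tested. Rps14, Rpl35a, Rps20, Rps15 and Rps27l did not pass it.

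The cells were CD44-low CD8+ T cells enriched by depletion from lymph nodes of OT-I T cell receptor transgenic mice (strain C57Bl6, 6 to 8 weeks old), so that all groups carried the same transgenic receptor. Naive cells were taken at 0 h (3 arrays). The Ag-B7 groups were stimulated with latex microspheres that carried the H-2Kb peptide complex and the costimulatory protein B7-1. They were harvested at 24 h (1 array), 48 h (4 arrays) and 72 h (1 array). Further groups received in addition murine rIL-12, an inflammatory cytokine (1, 3 and 1 arrays at 24, 48 and 72 h), or universal type I interferon, IFNa/b (1, 3 and 1 arrays). One array held cells stimulated with Ag-B7 and trichostatin A (TSA), an inhibitor of histone deacetylases, for 72 h. The labels give human rIL-2 to all cultures and number the arrays of a group as biological replicates. They do not say whether a number stands for separate animals, and p-values here measure the spread between these arrays.

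Ribosomal proteins assemble with ribosomal RNA in the nucleolus into the small subunit, which reads the messenger RNA, and the large subunit, which joins amino acids. Their messenger RNAs are among the most abundant in most cells, and most begin with a run of pyrimidines at the 5′ end through which the kinase mTOR controls their translation. T cell activation is known to raise ribosome production, and much of the control of this family in T cells acts on translation, which arrays of total RNA do not measure.

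Some measures outside the family separated the naive arrays from the stimulated ones, and others overlapped. Bacterial and phage hybridization controls, which serve as added controls, had a mean log2 signal of 13.40 to 14.86 on the 3 naive arrays and of 12.16 to 13.18 on the 17 stimulated arrays. The ratio of the 3′ to the 5′ probe set of beta-actin, a sign of RNA integrity, was 1.13 to 2.06 on naive arrays and 1.00 to 1.15 on stimulated arrays. The same ratio for Gapdh was 0.73 to 0.95 on naive and 0.77 to 0.87 on stimulated arrays. The ranges of both ratios overlapped between naive and stimulated arrays. The 7 CD8 T cell markers on the array summed to intensities of 62535 to 112729 on naive and of 44213 to 105985 on stimulated arrays. The 8 myeloid and dendritic markers summed to 11687 to 12907 on naive and 1656 to 8720 on stimulated arrays, and 3 erythroid and platelet markers to 6210 to 14512 against 332 to 773. For 5 B cell markers the sums were 1511 to 3246 and 522 to 1262. For 3 stromal markers they were 963 to 2892 and 342 to 962, and for the 1 marker of CD4 and gamma-delta T cells 585 to 1347 and 57.4 to 508. The 1 NK cell marker on the array reached at most 127. The part of these differences in the results below was not tested, and in bulk RNA fewer cells of a type and less RNA per cell cannot be told apart.

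Most members were among the brightest probe sets. Of the 35, 21 stayed above an intensity of 1000 on every array, and 18 of these lay in the top 2% of probe sets on all 20 arrays. Rpl41, the smallest ribosomal protein, ranged from 61898 to 188088, and Rplp0, the base of the stalk that recruits elongation factors, from 55491 to 154849. At the dim end, Rps27l, a paralog of Rps27, ranged from 20.9 to 142, Rps15 from 19.3 to 168 and Rps20 from 19.4 to 224. Intensity depends on the probes as well as on the RNA, and these ranges say nothing of the order of the RNA amounts. The 21 bright members together made up 7.18% to 8.63% of the summed intensity of each naive array and 4.27% to 5.95% of each stimulated array, so the ranges did not overlap.

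After 48 h of Ag-B7 stimulation, the median difference of ribosomal protein genes from naive cells lay below that of all genes. In the deposited values, 21 of the 30 members tested fell, 2 rose (Rpl13a and Rpl7l1) and 7 were not called. A call is an adjusted p under 0.05 in limma's test with Benjamini-Hochberg adjustment over all genes tested. The 21 include Rpl32, which passed the filter on dim signals only through the naive arrays. Over all genes tested, 35.6% were called lower and 26.1% higher. The median log2 difference was -0.95 over members and -0.23 over all genes. The direction depended on the scaling of the arrays. Centred on the array median, 5 members were lower and 3 higher. Centred on the spike-in controls, which are the hybridization controls above, none were lower and 13 were higher. Over all genes, 15.9% were lower and 40.6% higher with median centring, and 0.908% lower and 64.1% higher on the spike-in scale. The share of members called lower with median centring (16.7%) was near that of all genes, and the shares called higher (10% and 43.3%) were below it.

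The gap between the family and the typical gene was the same under both of those scalings, which move all genes of an array together. With spike-in scaling the median rose to 0.82 for members and to 1.54 for all genes, and with median centring the medians were -0.30 and 0.41. The member median minus the median of all genes was -0.72 in each of these scalings and in the deposited values. Quantile normalization, which gives all arrays the same distribution and so fixes the top of the range where most members lie, left a gap of -0.20. Under quantile normalization 10 members (33.3%) were called lower and 2 (6.67%) higher, where 26% and 30.9% of all genes were. Changes of single genes below are given in the deposited scale, and relative to the median of all genes where stated.

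**Figure D1:**
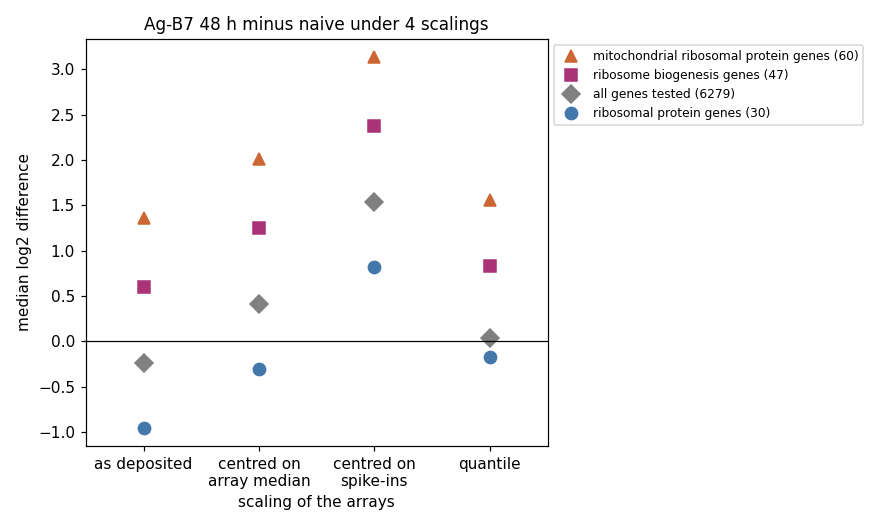
Median log2 difference between Ag-B7 48 h (4 arrays) and naive cells (3 arrays) on the y axis, for each scaling of the arrays on the x axis, with 1 point per gene group (numbers of genes tested in the legend). The ribosomal protein genes lie below all genes tested, at -0.95 against -0.23 as deposited and 0.82 against 1.54 on the spike-ins. Either centring moves all genes of an array together, so it cannot change this gap of -0.72. Under quantile normalization the gap is -0.20. The mitochondrial ribosomal protein genes lie above all genes tested under every scaling.

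Among small subunit genes, 10 of 13 tested fell and none rose at 48 h in the deposited values, where 35.6% and 26.1% of all genes did. On the spike-in scale none was called lower, where 0.908% of all genes were. Rps27, a zinc-finger protein of the small subunit, had intensities of 5818, 7269 and 5326 on the naive arrays and of 1387, 1531, 2134 and 1416 on the Ag-B7 48 h arrays. The groups did not overlap, and the log2 difference was -1.90 ± 0.20 (SE; adjusted p = 8.89e-07), or -1.67 relative to the median of all genes. All 17 stimulated arrays, from 1387 to 2250, were below the lowest naive array.

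Rps7, a small subunit protein that is also known to bind Mdm2, measured 86689, 92946 and 103545 on the naive arrays. At 48 h it measured 38101, 39117, 35593 and 36975, with a mean of 37447 ± 1514 (SD, n = 4) against 94394 ± 8521 (n = 3). The log2 difference was -1.33 ± 0.15 (adjusted p = 2.18e-06). Rps24, a gene mutated in some patients with Diamond-Blackfan anaemia, went from 104420, 200859 and 176218 to 51459, 50603, 68454 and 46977, a log2 difference of -1.52 ± 0.23 (adjusted p = 4.02e-05). The naive arrays differed among themselves for Rps24 more than for Rps7, and every 48 h array was below them. Rps28 differed by -1.23 ± 0.21 (adjusted p = 0.000112).

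The 4 genes Rps27, Rps7, Rps24 and Rps28, were also called lower with the arrays centred on their medians, at -1.26, -0.69, -0.88 and -0.59. The other member called lower there was Rpl32, which the filter on dim signals kept for its naive values. On the spike-in scale Rps27 stood at -0.13 and Rps7, Rps24 and Rps28 at 0.44, 0.25 and 0.54, none of them called.

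Rps29, another zinc-binding protein, was dimmer. It had 580, 1069 and 736 on the naive arrays and 372, 90.2, 487 and 276 at 48 h, and its log2 difference was -1.38 ± 0.41 (adjusted p = 0.00877). Rps4x, one of the X-linked ribosomal protein genes, differed by -0.94 ± 0.16 (adjusted p = 0.000134) on its brightest probe set, and by -0.36 (adjusted p = 0.233, not called) with the mean of its probe sets. Of the other small subunit genes called lower, Rps3, Rps3a1, Rps18 and Rps13 had log2 differences between -0.96 and -1.08. Rps13 was dim, and its call was lost in 8 of the 13 fits that left out 1 array each.

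The other 3 small subunit genes were not called. Rps19, the gene most often mutated in Diamond-Blackfan anaemia, had 77644, 24556 and 77038 on the naive arrays and 45251, 54545, 46575 and 43320 at 48 h. Naive replicate 2 was below all 48 h arrays and the other naive arrays were above them. Its log2 difference was -0.16 ± 0.31 (adjusted p = 0.67). Without naive replicate 2 it was -0.71 (adjusted p = 0.00593). Rps10 (-0.40 ± 0.18, adjusted p = 0.0599) and Rpsa (-0.33 ± 0.17, adjusted p = 0.103), a protein of the small subunit also known as the laminin receptor, likewise became calls without that array. On the array-median scale the differences of Rps19, Rps10 and Rpsa were above 0 at 0.48, 0.25 and 0.32, not called.

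Among large subunit genes outside the stalk, 9 of 13 tested fell and 1 rose in the deposited values, where 35.6% and 26.1% of all genes did. On the spike-in scale none was called lower, where 0.908% of all genes were. The stalk gene Rplp0 also fell. It had 113318, 140256 and 154849 on the naive arrays and 61539, 70932, 76821 and 56498 at 48 h. The groups did not overlap, and the log2 difference was -1.03 ± 0.20 (adjusted p = 0.000326). The other stalk genes, Rplp1 and Rplp2, had no single-symbol probe set. Rpl41 differed by -1.08 ± 0.24 (adjusted p = 0.000973), with a naive mean of 162061 ± 36052 (SD, n = 3) and a 48 h mean of 76599 ± 18253 (n = 4).

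The other bright large subunit genes called lower were Rpl19, Rpl8, Rpl37a, Rpl7, Rpl6 and Rpl10a, from -1.03 for Rpl19 to -0.44 for Rpl10a. Rpl10a forms the L1 stalk, near the site where transfer RNA leaves the ribosome, and its fall (± 0.17, adjusted p = 0.0316) was lost in 5 of 13 fits that left out 1 array. Centred on array medians, no bright large subunit gene was called lower, where 15.9% of all genes were. The 9 bright genes of the large subunit had a median of -0.43 relative to all genes, and the 11 of the small subunit one of -0.77. Under quantile normalization these were -0.07 and -0.24, and the gap between subunits was not tested.

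Rpl7a, a protein of the large subunit, had the smallest difference of the 21 bright members. It had 45690, 34035 and 47527 on the naive arrays and 40647, 42047, 41612 and 33876 at 48 h, and the groups overlapped. Its difference was -0.09 ± 0.17 (adjusted p = 0.649; 95% interval -0.44 to 0.26). On the array-median scale it was 0.55 and called higher (adjusted p = 0.0424). Over the 11 group means Rpl7a also had the narrowest range of all members, 0.37 on the log2 scale. Rps19, Rpsa, Rpl10a and Rps10 followed, up to 0.70 for Rps10.

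Rpl32 was dim and passed the filter only through the naive arrays, so a fall in it was partly set by the filter. It had 224, 930 and 491 on the naive arrays and 87.5, 65.4, 169 and 24.3 at 48 h, a log2 difference of -2.09 ± 0.48. Because of the filter, its call in limma's test (adjusted p = 0.00145) is no support for a fall. Rpl32 is counted among the members, and among the large subunit genes, that fell from naive cells in each 48 h comparison. The 3 naive arrays and 1 array outside the replicated groups had it above their 40th percentile, and none of the 10 stimulated arrays at 48 h did. It is the only member tested that would not have passed on the 48 h arrays alone. Rpl39, at the peptide exit tunnel, was also dim, and its groups overlapped (-0.98 ± 0.38, adjusted p = 0.0331). This call was lost in 4 of 13 fits that left out 1 array, in the fit of these 2 groups alone (adjusted p = 0.0659) and with the replicate block (adjusted p = 0.051). The uncalled large subunit genes were Rpl7a, Rpl38 and Rpl22, of which Rpl22 had -0.10 ± 0.60. Rpl38, known for a role in translation of Hox messenger RNAs, had -0.76 ± 0.42 (adjusted p = 0.123).

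Rpl13a moved against the family. Rpl13a is a large subunit protein that can also leave the ribosome to repress translation of inflammatory messenger RNAs, and its transcript is widely used as a reference for normalization. Its intensities were 5965, 2646 and 6217 on the naive arrays. At 48 h of Ag-B7 they were 14620, 14762, 14303 and 11588. Every stimulated array, at 8969 to 14988, was above every naive array. The log2 difference was 1.57 ± 0.24 (adjusted p = 3.93e-05), or 1.80 relative to the median of all genes.

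Rpl13a was called higher under the other scalings too, at 1.34 (quantile), 2.21 (array median) and 3.33 (spike-ins). Naive replicate 2, the lowest naive array for Rpl13a, was also the lowest for Rps19, Rpl7a and Rpl7l1. Leaving out 1 array at a time gave differences between 1.17 and 1.78 for Rpl13a, and it was called each time.

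The members included 4 paralogs outside the standard set of ribosomal proteins. Rpl7l1, a paralog of Rpl7 that acts in the assembly of the large subunit, rose. It had 475, 344 and 578 on the naive arrays and 831, 788, 953 and 1229 at 48 h, a log2 difference of 0.97 ± 0.24 (adjusted p = 0.00234). It was called higher under all 4 scalings. Rpl7 itself fell, by 0.66 on the log2 scale (± 0.15, adjusted p = 0.0012) in the deposited values. Rpl39l, the paralog of Rpl39 best known from testis, was dim and fell by 1.05 (± 0.39, adjusted p = 0.0266). Rps4l, a paralog of Rps4x, had 0.19 ± 0.42 and was not called. The fourth was Rps27l, which did not pass the filter.

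**Figure D2:**
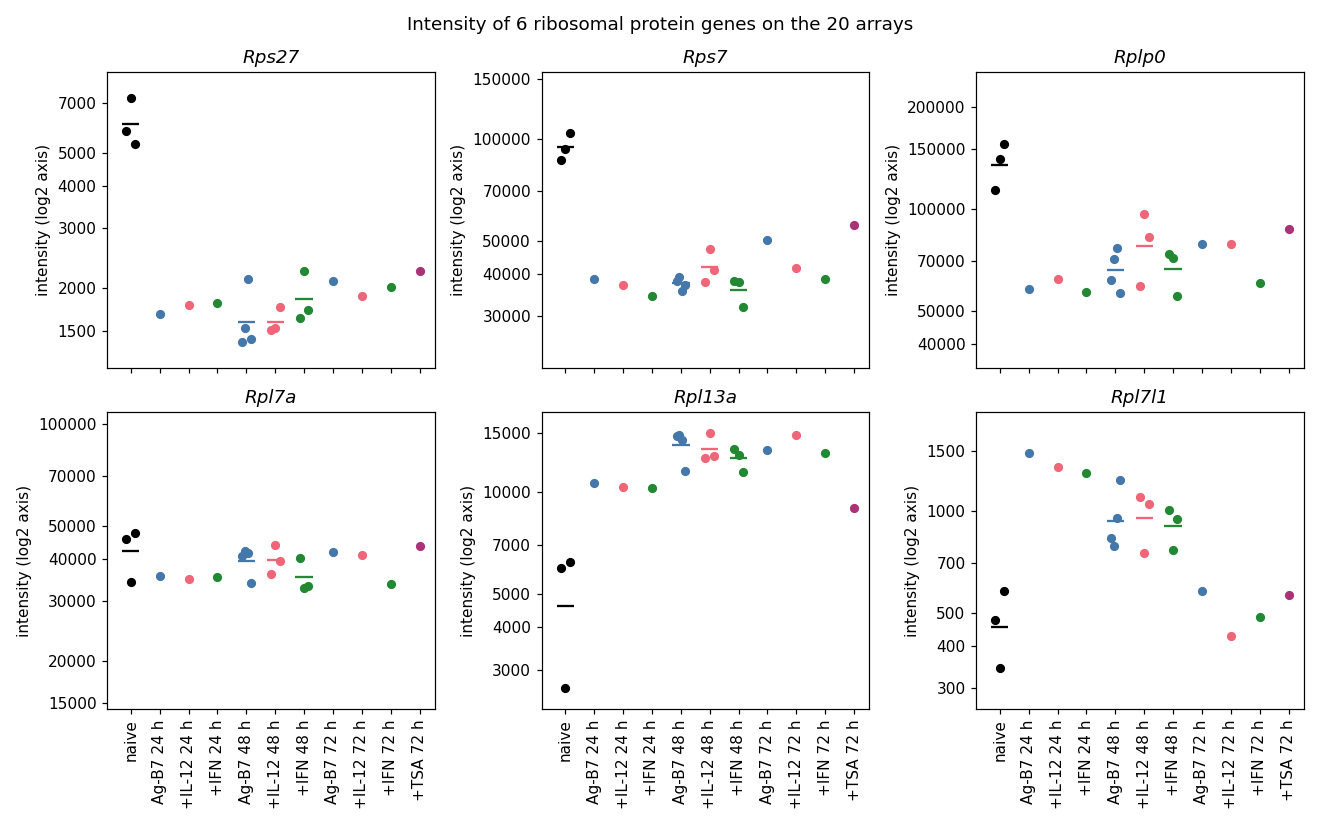
Intensity (log2 axis, each panel spanning the same fold range) of 6 genes on each of the 20 arrays, by group and time on the x axis; points are arrays and bars are group means of log2 values where a group has over 1 array. Rps27, Rps7 and Rplp0 are highest in the 3 naive samples, Rpl7a overlaps between naive and 48 h samples, and Rpl13a is lowest in naive samples. Rpl7l1 is highest at 24 h (1481 with Ag-B7) and back in the naive range of 344 to 578 in most samples at 72 h.

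**Figure D3:**
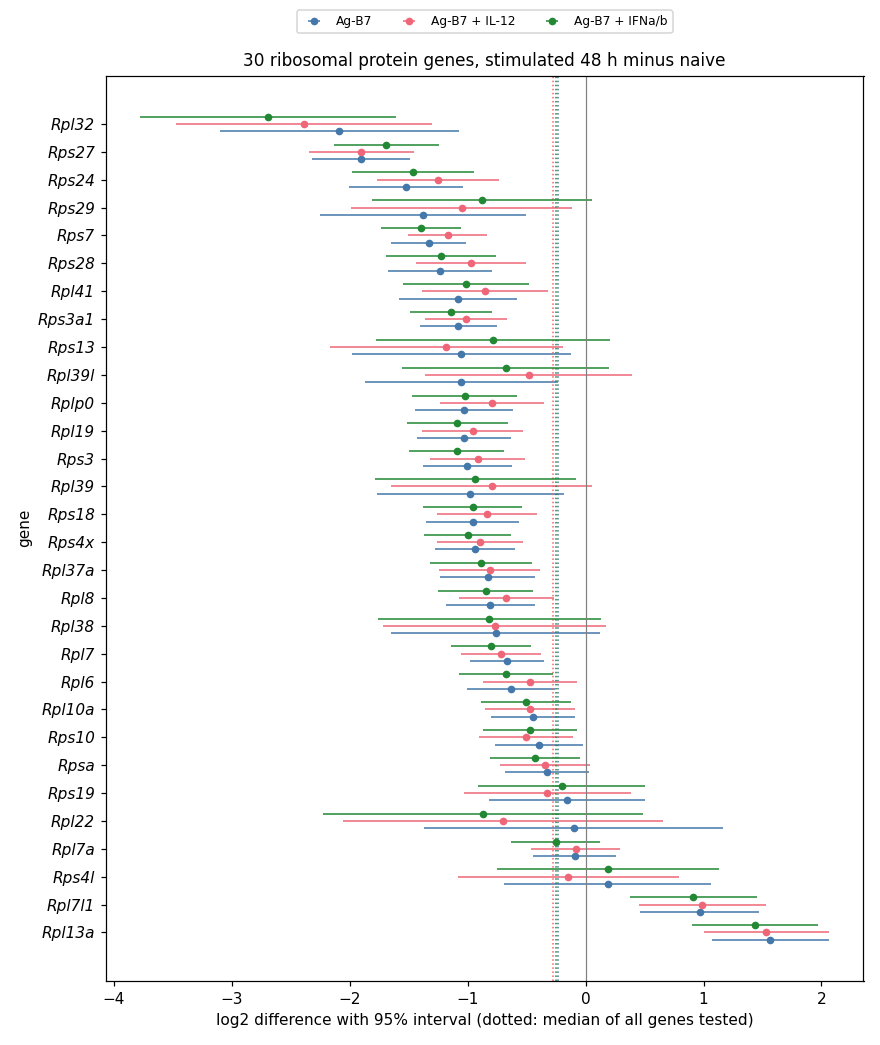
Log2 difference from naive cells (x axis, with 95% intervals from limma) of the 30 members tested (y axis), at 48 h for stimulation alone (4 arrays), with added IL-12 (3) and with added interferon (3), each against 3 naive arrays. Dotted lines mark the median of all genes tested, -0.23 for Ag-B7; most members lie to its left, and Rpl13a and Rpl7l1 lie to the right of 0.

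The promoters of members are shown for genes that moved in different ways. RefSeq promoters (GRCm38.p6; 250 bases before to 50 after the annotated start) were matched by symbol for 28 of the 35 members. The stretches below run 5′ to 3′ on the coding strand from 70 bases before to 25 bases after the start. Rps27 (chr3:90213624-90213718, minus strand) and Rps7 (chr12:28635929-28636023, minus strand) were among the members that fell most. Rpl7a (chr2:26910737-26910831, plus strand) had a difference near 0 in the deposited values, and Rpl13a (chr7:45128721-45128815, minus strand) and Rpl7l1 (chr17:46782632-46782726, minus strand) rose. Capitals mark CCGGAA or its complement TTCCGG, the core letters bound by ETS factors, and runs of at least 8 C or T that begin no earlier than 25 bases before the start. The run that begins with the last letters printed for Rps7 goes on past the end of the stretch.
Rps27: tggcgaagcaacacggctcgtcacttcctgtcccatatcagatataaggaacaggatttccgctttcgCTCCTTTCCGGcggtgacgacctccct
Rps7: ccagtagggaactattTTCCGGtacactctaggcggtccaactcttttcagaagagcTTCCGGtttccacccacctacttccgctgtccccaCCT
Rpl7a: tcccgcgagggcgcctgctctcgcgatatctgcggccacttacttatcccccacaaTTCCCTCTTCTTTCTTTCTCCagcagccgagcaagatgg
Rpl13a: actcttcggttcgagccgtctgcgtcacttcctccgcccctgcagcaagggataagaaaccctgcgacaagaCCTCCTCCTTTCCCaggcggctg
Rpl7l1: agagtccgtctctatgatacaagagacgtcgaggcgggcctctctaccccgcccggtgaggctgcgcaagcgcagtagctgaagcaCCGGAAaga

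A run of at least 8 C or T on the coding strand, between 25 bases before and 50 after the start, was present in 19 of the 28 members (67.9%) and in 30.4% of all 27025 genes with a promoter. CCGGAA, searched on both strands over all 300 bases, was present in 17 of 28 (60.7%) and in 16.7% of all genes. CACGTG, the E-box bound by Myc and other factors, was present in 3 of 28 (10.7%), Rpl13a, Rpl19 and Rps19, and in 8.09% of all genes. Matches of the CCGGAA and run searches can overlap, as in Rps27, where the capitals join. Of the 17 members called lower at 48 h that had a promoter, 11 held the run and 11 held CCGGAA. A match is a description of letters, not of binding.

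With IL-12 or IFNa/b added, the 48 h values differed from naive cells in the same range. These comparisons share the naive arrays with the one above. With IL-12, 19 members fell and 2 rose (34% of all genes tested were called lower and 24.8% higher), with a median of -0.79 over members and -0.27 over all genes. With IFNa/b, 18 fell and 2 rose (33.1% and 25.3%), with medians of -0.87 and -0.25. The direction again turned on the spike-in scale, where none were lower and 9 (30%) and 12 (40%) were higher. Of all genes, 1.35% were lower and 54.6% higher there with IL-12, and 0.764% and 64.7% with IFNa/b.

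The members with the largest falls with IL-12, next to Rpl32 (-2.38), were Rps27 (-1.90 ± 0.21, adjusted p = 2.07e-06), Rps24 (-1.25), Rps13 (-1.18) and Rps7 (-1.17). With IFNa/b, next to Rpl32 (-2.69), they were Rps27 (-1.69 ± 0.21, adjusted p = 7.46e-06), Rps24 (-1.46), Rps7 (-1.39) and Rps28 (-1.23). Rpl13a rose by 1.53 ± 0.25 with IL-12 and by 1.44 ± 0.25 with IFNa/b, and Rpl7l1 by 0.99 ± 0.25 and 0.91 ± 0.25. The 3 arrays with IL-12 measured 12644, 14988 and 12827 for Rpl13a, and the 3 with IFNa/b measured 13455, 12905 and 11466, all above the naive arrays.

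Between the stimulated groups at 48 h no member was called by limma. The comparison of IL-12 with Ag-B7 alone called 0.382% of all genes tested higher and 0.239% lower, that of IFNa/b with Ag-B7 alone 0.414% and 0.0159%, and that of IL-12 with IFNa/b 0.287% and 0.653%. At an unadjusted p under 0.05 the count of members was also 0 of 30 in each, against 364, 286 and 303 of all genes. With the replicate number as a block in a fit of the 2 groups alone, the comparison of IL-12 with Ag-B7 called 108 of all genes higher and 83 lower, and again 0 members. The fit of these groups without the block called 29 and 13, and the fit of all 4 groups called 24 and 15 without and 21 and 14 with the block. Member medians were 0.03 for IL-12 against Ag-B7 alone, -0.05 for IFNa/b against Ag-B7 alone and 0.13 for IL-12 against IFNa/b.

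A difference that misses the threshold does not show equal levels, and the intervals set what these arrays allow. The median SE was 0.18 for the 21 bright members and 0.42 for the others. For the 21 bright members the IL-12 differences from Ag-B7 alone ran from -0.16 (Rps19) to 0.27 (Rps24), and their 95% intervals from -0.83 to 0.76. The IFNa/b differences ran from -0.16 (Rpl7a) to 0.21 (Rps27), with intervals from -0.70 to 0.63. A 2-fold change, 1 on the log2 scale, lay outside these bounds, which hold for the deposited scale. Intervals under the other scalings are not given here. The 9 dimmer members had wider intervals, down to -1.87 for Rpl22 with IL-12. Rps27, the most lowered bright member, had 1501, 1530 and 1762 with IL-12 and 1635, 2250 and 1729 with IFNa/b, which overlapped the 4 arrays of Ag-B7 alone.

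**Figure D4:**
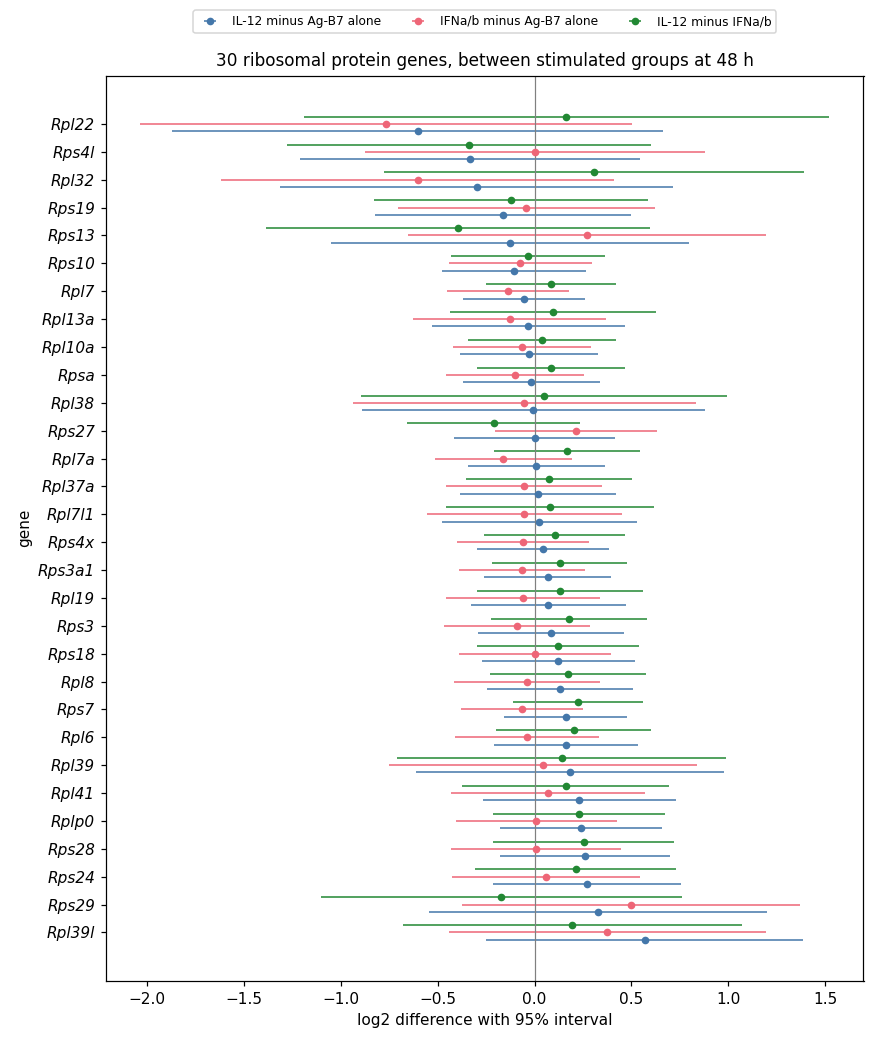
Log2 differences (x axis, with 95% intervals from limma) of the 30 members tested (y axis) between stimulated groups at 48 h: IL-12 minus Ag-B7 alone, IFNa/b minus Ag-B7 alone, and IL-12 minus IFNa/b. All intervals cross 0, and those of dim genes such as Rpl22 are the widest.

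The 24 h and 72 h groups had 1 array each, so their differences have no replicate check and are described past 2-fold. At 24 h of Ag-B7, 13 of the 30 members were more than 2-fold below the naive mean and 2 above it, where 32.5% and 19.3% of all genes were. The 2 above were Rpl13a (10646) and Rpl7l1 (1481). At 72 h, 5 members were below and 2 above, where 16.1% and 13.3% of all genes were. The 2 above were Rpl13a (13281) and Rpl22 (1757), and the 5 below were Rps27, Rps24, Rps28 and the dim Rpl38 and Rpl39. Rps27 was 1.83 below naive on the log2 scale at 24 h (1684) and 1.51 below at 72 h (2104). On the spike-in scale no member was 2-fold below naive at 24 h or 72 h, and 18 and 11 were above, where 1.37% and 0.669% of all genes were below and 68.1% and 65.9% above.

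Rpl7l1 and Rpl13a differed in time course. Rpl7l1 had 1481, 1344 and 1293 on the 24 h arrays (Ag-B7, with IL-12, with IFNa/b), 753 to 1229 on the 10 arrays at 48 h and 428 to 579 at 72 h, which overlapped the naive range of 344 to 578. Rpl13a had 10646, 10342 and 10300 at 24 h, 11466 to 14988 at 48 h and 8969 to 14757 at 72 h. Its lowest stimulated value, 8969, was the array with TSA.

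From 48 h to 72 h of Ag-B7, 2 members were more than 2-fold higher, Rpl22 and the dim Rpl32, and none lower, where 9.16% of all genes were higher and 6.59% lower. Rpl22 is a large subunit protein needed for development of alpha-beta T cells. It had 1781, 116 and 800 on the naive arrays, 118 to 759 on the 10 arrays at 48 h, and 1757, 1987, 1659 and, with TSA, 973 at 72 h. All 4 arrays at 72 h were above all arrays at 48 h, while the naive arrays spanned both. A second, dimmer probe set of Rpl22 differed from naive cells by -0.91 at 48 h (adjusted p = 0.0329 with each probe set tested on its own), against -0.10 for the brighter one, so the probe sets did not give the same value.

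With TSA for 72 h, compared with Ag-B7 alone at 72 h, no member was more than 2-fold higher and 1 was lower (Rpl32, at 97.6 against 331), where 7.09% of all genes were higher and 8.97% lower. Of the 21 bright members 17 had higher values with TSA, up to 0.53 on the log2 scale for Rpl41 (128437 against 88791). Rpl13a had the lowest difference of them, -0.56 (8969 against 13281). Of the 30 members tested, 23 were above 0 as deposited, and under quantile normalization 17 were above and 11 below. The share of all genes above 0 is not set beside these counts. The median difference over the 30 members was 0.17 as deposited and 0.05 under quantile normalization, against 0.01 and 0.03 over all genes. These are single arrays, and the size of the difference between arrays of 1 group at 72 h is not known.

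Probe sets of the same gene and probe sets shared by several genes bear on how specific these values are. Ribosomal protein genes have many near-identical processed pseudogenes. Among the chosen probe sets, 9 of 35 carry a suffix by which Affymetrix marks probes shared within a gene family or chosen under relaxed design rules (Rpl41 and Rps28 with f, Rps24, Rps13, Rpl38, Rpl32 and Rps27l with r, Rpl7 and Rps4l with s), and their values are uncertain for that reason. A further 14 probe sets stood for 10 of the member genes. Of the 9 of these that passed the filter, 6 were called lower and none higher than naive at 48 h, and 8 were below 0. The exception was a dim probe set of Rps4x, at 0.50 (adjusted p = 0.418), where the chosen Rps4x probe set fell. Another 39 probe sets carried several symbols, at least 1 of them a ribosomal protein gene. Of these, 36 passed the filter, and 25 were called lower and none higher with Ag-B7, with a median of -0.77. Over all probe sets tested, 36.4% were called lower and 24.9% higher.

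Genes around the family moved in other ways in the same comparison, Ag-B7 48 h against naive. The mitochondrial ribosomal proteins, which build the separate ribosome of mitochondria, rose in 50 of 60 genes tested and fell in 3, Mrpl3 (-1.27), Mrpl33 (-0.60) and Mrpl48 (-0.49), with a median of 1.36. Mrpl11 (2.75 ± 0.32), Mrpl12 (2.51 ± 0.23) and Mrps10 (2.45 ± 0.23) rose most. The ribosome biogenesis genes, which make ribosomal RNA and assemble the subunits, rose in 28 of 47 and fell in none (1 fell under quantile normalization), with a median of 0.60. Ebna1bp2 (2.83 ± 0.30), the transcription factor gene Myc (2.45 ± 0.34) and Nhp2 of the small nucleolar ribonucleoproteins (2.40 ± 0.22) rose most. Both lists had positive medians under all 4 scalings.

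A further list held 20 genes with symbols outside the family's rule, most of them of translation, whose transcripts begin with the same pyrimidine run. Of these, 8 rose and 7 fell, with a median of 0.22. Fau (-1.06), among those that fell, encodes a small subunit ribosomal protein under another symbol, so the list is not free of the family. On the spike-in scale 13 of the 20 rose and none fell, near the share of all genes there (64.1% higher). Nap1l1, a histone chaperone (2.12 ± 0.15), Eef1b2, a subunit of the elongation factor that loads transfer RNA (-1.84 ± 0.32), and Vim, which encodes vimentin (-1.51 ± 0.55), had the largest differences. The median of this list minus that of all genes was 0.45, against -0.72 for the ribosomal protein genes. Under quantile normalization these values were 0.015 and -0.20, and the difference between the lists was not tested.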

How the data were processed

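Total RNA of each sample was hybridized to 1 Affymetrix MG-U74Av2 array. The deposited intensities are linear MAS5 signals, per the labels and the submitters' processing notes, and the 2% trimmed mean of every array was 1000.46 to 1000.74, so the authors scaled arrays to a common mean. That scaling hides any change in total RNA per cell, and the other scalings used here do not recover it. Values were used as log2(intensity + 46.4). Of 12488 probe sets, 66 were controls, 10833 had 1 symbol in the platform annotation, 396 had several and 1193 were not listed. Genes above the 40th percentile of their array on at least 3 of the 13 arrays of replicated groups were tested.

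Groups were compared with limma 3.58.1 (R 4.3.3), 1 fit of group means over the 4 replicated groups with a variance trend (9 residual degrees of freedom), with Benjamini-Hochberg adjustment over all 6279 genes and a threshold of 0.05. A fold change is on the log2(intensity + 46.4) scale and understates changes of dim genes. The number of arrays limits the precision. Alternatives were quantile normalization, centring on the array median or on 9 spike-in controls, other pseudocounts (16 and 200) and filters, the mean of a gene's probe sets, no variance trend, fits of 2 groups, a replicate block and leaving out each array. The test was checked on simulated data.

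Same-numbered arrays of Ag-B7 and Ag-B7 with IL-12 deviated from their group means together (correlations over genes of 0.280, 0.279 and 0.276 in the 3 pairs). Ag-B7 replicates 2, 3 and 4 did so with IFNa/b replicates 1, 2 and 3 (0.283, 0.278 and 0.454). The same-numbered arrays of Ag-B7 and IFNa/b had 0.112, -0.042 and -0.097, so a block by replicate number does not join the arrays that correlated most. This comes from the values, since the labels tie no numbers to animals, and a shared source was not tested. Other groups did not show it in every same-numbered pair. Named members were the 5 largest rises and falls called in each comparison, the 3 brightest and dimmest, the 5 widest and 5 narrowest ranges of group means, stalk genes, Rpsa, Rpl22, paralogs and genes whose other probe sets had the opposite sign, and up to 3 genes of each other list. Other names were chosen after their values were seen. Members and lists were chosen with earlier results of these data known.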

Additional observations from a re-analysis of the deposited data

Results flagged for a closer look

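In the group of 4 Ag-B7 48 h arrays, 2 of the 30 members tested had 1 array far from the others, by Dixon's ratio of the gap to the range on the log2 scale. For Rpl7a the ratio was 0.843, with replicate 4 at 33876 and the others at 40647 to 42047. For Rpl13a it was 0.869, with replicate 4 at 11588 and the others at 14303 to 14762. Both lie above Dixon's 95% critical value for 4 samples, which chance passes in about 5% of groups. Rpl13a was called higher than in naive cells, and Rpl7a was not called, also without replicate 4.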

How the results depend on the processing

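Scaling decided the counts and medians against naive cells. Under quantile normalization the members called lower were 10 (Ag-B7), 10 (IL-12) and 9 (IFNa/b), with medians of -0.17, -0.18 and -0.18, where 26%, 25.1% and 24.7% of all genes were lower. Under centring on array medians they were 5, 4 and 6, with medians of -0.30, -0.19 and -0.25, where 15.9%, 14.7% and 14.3% of all genes were lower. Under spike-in scaling 0 were lower in each and 13, 9 and 12 were higher, with medians of 0.82, 0.78 and 0.98, where 64.1%, 54.6% and 64.7% of all genes were higher. There the median of IL-12 minus IFNa/b was -0.16. The spike-in controls are hybridization controls, not added per cell, so no scaling here is known to follow RNA per cell.

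In Ag-B7 against naive, 6 of 30 members changed sign with quantile normalization and 7 when centred on array medians. On the spike-in scale 25 did, and Rpl32 and Rps27 alone stayed below 0. There 26 changed sign with IL-12 and 26 with IFNa/b. Values follow for the members named by rule. Under quantile normalization these were Rpl22 (0.31), Rpl41 (0.067), Rpl7a (0.15), Rplp0 (0.040), Rps10 (0.14) and Rps19 (0.25). Under median centring they were Rpl10a (0.20), Rpl22 (0.55), Rpl7a (0.55), Rps10 (0.25), Rps19 (0.48) and Rpsa (0.32). Under spike-in scaling they included Rpl10a (1.33), Rpl22 (1.67), Rpl39 (0.79), Rpl39l (0.72), Rpl41 (0.69), Rpl7a (1.68), Rplp0 (0.74), Rps10 (1.37), Rps19 (1.61), Rps24 (0.25), Rps28 (0.54), Rps29 (0.39), Rps4x (0.83), Rps7 (0.44) and Rpsa (1.44). Among the 5 largest falls with IL-12, spike-in scaling gave Rps13 0.39, Rps24 0.32 and Rps7 0.40, and among those with IFNa/b it gave Rps24 0.39, Rps27 0.16, Rps28 0.63 and Rps7 0.46. The mean of its probe sets gave Rps4l -0.43.

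Leaving out each of 13 arrays gave 18 to 21 members lower for Ag-B7, 14 to 21 for IL-12 and 16 to 22 for IFNa/b, with 2 higher each time. Medians were -1.05 to -0.78, -0.94 to -0.66 and -1.04 to -0.80. The share of all genes called in each fit is not set beside these counts, so the counts do not place the family against all genes. Between stimulated groups 0 members were called each time, with medians of -0.06 to 0.19 for IL-12 and -0.11 to 0.01 for IFNa/b against Ag-B7 alone, and 0.01 to 0.23 for IL-12 minus IFNa/b. For 3 uncalled members these fits turned the sign. Rpl22 ranged from -1.08 (without naive replicate 2) to 0.67 (without naive replicate 1), and was above 0 also without naive replicate 3 (0.11) or Ag-B7 replicate 3 (0.13). Rps19 ranged from -0.71 (without naive replicate 2) to 0.12 (without naive replicate 1), with 0.11 without naive replicate 3. Rps4l ranged from -0.48 (without naive replicate 3) to 0.65 (without naive replicate 2).

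With the replicate number as a block, 18, 16 and 18 members were lower and 2 higher than in naive cells, with medians of -0.83, -0.79 and -0.87, and 0 were called between stimulated groups. In fits of 2 groups with the block, added after the data were seen, 16, 15 and 16 were lower. Over all genes, that fit called 51 higher and 20 lower for IFNa/b against Ag-B7, the fit of 2 groups without the block 31 and 4, and the fit of 4 groups 33 and 7 with and 26 and 1 without the block. Of 18 same-numbered pairs, 8 had a correlation above 0.1, and 5 of 12 arrays correlated best with their own number. For IFNa/b the block does not join the arrays that correlated most with those of Ag-B7. For the comparisons with naive cells, the shares of all genes called in the block fits are not set beside the member counts. Dim members had wide intervals, and few arrays limit what could be called.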
